A study of Mus musculus with 18 samples.

Results

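The substantia nigra of mice given an adeno-associated virus carrying green fluorescent protein (AAV-GFP) was compared with that of intact mice. The comparison used 12 of the 18 libraries of the series, 6 from each group, taken by their sample labels and covering all genes of the deposited table. Each library came from 1 mouse, and all mice were 3 months old, with RNA taken about a month after the virus. All groups are labelled wild type by genotype. Intact mice have no injection named, AAV-GFP mice received the vector with GFP as its only named product, and the remaining 6 mice received an AAV carrying SIRT3, a mitochondrial deacetylase. The serotype, promoter, dose and route of the vector and the sex of the mice are not given in the sources used here, and neither is a sham-injected group. Responses to the injection, to the viral particle and to GFP therefore cannot be told apart in this comparison.

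The substantia nigra holds the dopaminergic neurons that project to the striatum, among a larger number of GABAergic neurons and glia. Microglia, the resident macrophages of the brain, survey intact tissue in a homeostatic state marked by genes such as P2ry12 and Tmem119. When they meet dying cells, debris or lipid they can take on a phagocytic state, often called disease-associated, which depends on the receptor Trem2 and its adaptor Tyrobp and brings up Itgax, Clec7a, Cst7, Gpnmb and Apoe. Astrocytes respond to injury and to microglial signals by raising Gfap, Serpina3n and complement components.

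Sequencing depth was alike in both groups, from 47.2 to 60.9 megareads assigned to genes in the intact libraries and from 48.9 to 64.7 megareads in the AAV-GFP libraries. Th and Slc6a3, the defining genes of dopaminergic neurons, were present in all 12 libraries, at no less than 3673 and 6087 normalised reads. Marker genes of neighbouring tissue differed in level between libraries. Summed over 20 thalamic marker genes, intact libraries ranged from 93495 to 172712 normalised reads and AAV-GFP libraries from 147157 to 166156, and by their mean log2 value intact replicates 1, 3 and 5 lay below all the others. Anterior pituitary genes were high in most intact libraries, and Ttr, the leading choroid plexus transcript, reached 44471 normalised reads in intact replicate 2 and 39158 in AAV-GFP replicate 5. AAV-GFP replicate 2 stood apart by transcript length, with a Spearman correlation across genes of -0.33 between length and its deviation from the mean of all libraries, against -0.0076 to 0.12 in the other AAV-GFP libraries and 0.08 to 0.19 in the intact ones. Results that move with these libraries are given below with and without them.

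At an adjusted p under 0.05 (limma on log2 of the normalised reads plus 1, Benjamini-Hochberg over all genes), 358 of 19442 tested genes (1.84%) differed between AAV-GFP and intact. Of these, 160 (0.823%) were higher and 198 (1.02%) lower in AAV-GFP. The differences were mostly small: 73 exceeded 1.5-fold, 44 of them rises and 29 falls. In 78 of the rises and 95 of the falls no library of one group reached the range of the other, against 170 (0.874%) of all tested genes lying wholly above and 192 (0.988%) wholly below. The larger rises were mostly genes of phagocytic microglia, complement and reactive astrocytes, and the 3 largest falls were genes of the anterior pituitary list. The total fell to between 129 and 168 when intact replicate 3, 4 or 5 or AAV-GFP replicate 2, 3 or 5 was left out, with 71 to 88 rises and 55 to 85 falls. It was 540 without intact replicate 6 (305 rises) and 686 without AAV-GFP replicate 1 (321 rises and 365 falls), while rises alone numbered 257 without intact replicate 2 and falls alone 124 without AAV-GFP replicate 4. In all 12 such fits 94 of the 358 genes, 54 higher and 40 lower, stayed past the threshold. At an unadjusted p under 0.05 by limma, 3707 of the 19442 genes passed, 1864 higher and 1843 lower. Unadjusted counts given below for gene lists in the fit of all libraries stand beside that share.

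**Figure D1:**
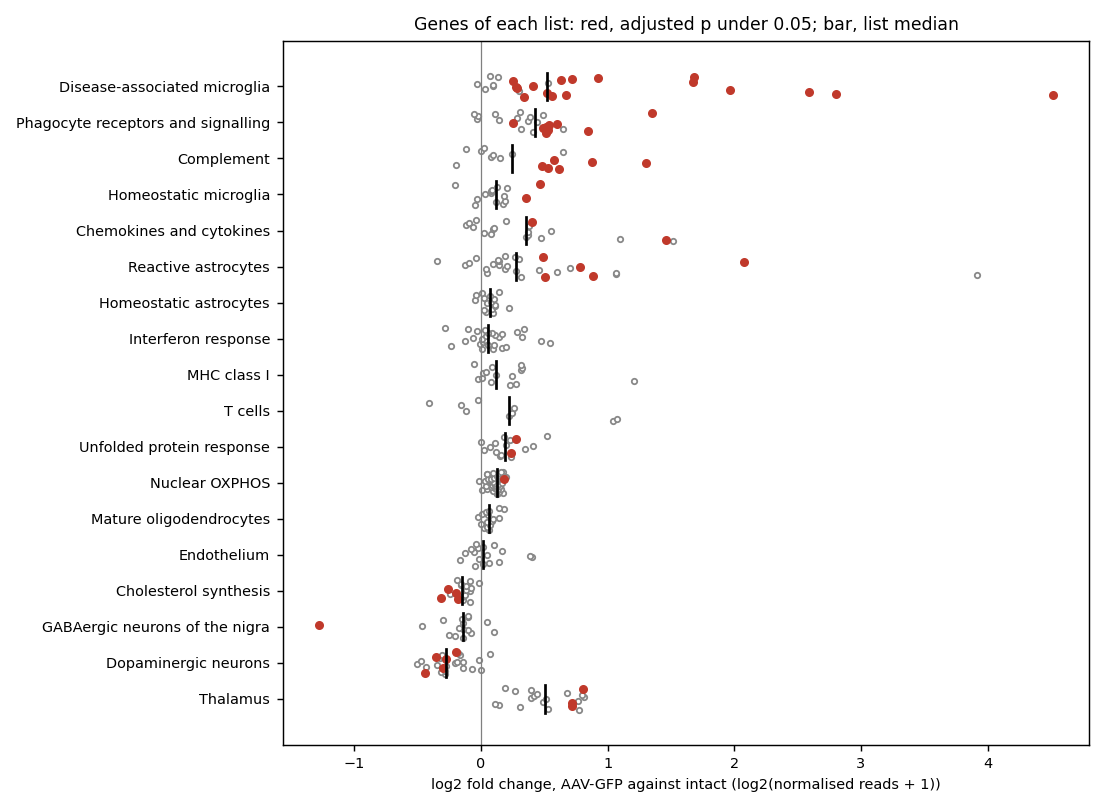
Log2 fold change of AAV-GFP against intact for each tested gene of 18 gene lists, 1 point per gene, with called genes in red and the list median as a black bar. The disease-associated microglia list lies furthest right of zero among the glial lists (median 0.52), while the dopaminergic neuron list lies to the left (median -0.28) and the thalamus list to the right (median 0.50).

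Genes of the phagocytic microglial state gave more calls than any other gene list examined. The lists were chosen with earlier results of these data known, so their counts give no independent support. Of 25 tested genes of the disease-associated microglia list, 17 rose and 0 fell, and the median log2 fold change was 0.52, against 0.00074 over all tested genes. Itgax, which encodes the integrin CD11c, and Clec7a, the beta-glucan receptor Dectin-1, had the largest rises among genes with a mean of at least 50 normalised reads, ahead of Gpnmb, a glycoprotein of lysosome-rich phagocytes, and Lgals3, the lectin galectin-3. The stretches of 250 bases before their RefSeq start sites (GRCm38.p6) are shown because these 4 genes head the rises, printed 5′ to 3′ on the strand of the gene.
Itgax, chr7:128129300-128129549, plus strand: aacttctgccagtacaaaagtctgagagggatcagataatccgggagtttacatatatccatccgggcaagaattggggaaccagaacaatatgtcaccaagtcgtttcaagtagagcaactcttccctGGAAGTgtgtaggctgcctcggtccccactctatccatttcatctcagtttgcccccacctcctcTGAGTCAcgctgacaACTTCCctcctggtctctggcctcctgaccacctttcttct
Clec7a, chr6:129472780-129473029, minus strand: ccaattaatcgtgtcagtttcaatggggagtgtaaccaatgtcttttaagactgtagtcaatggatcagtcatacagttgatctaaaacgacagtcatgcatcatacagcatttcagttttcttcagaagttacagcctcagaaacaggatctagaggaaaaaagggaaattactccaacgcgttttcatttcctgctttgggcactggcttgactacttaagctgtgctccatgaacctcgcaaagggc
Gpnmb, chr6:49036268-49036517, plus strand: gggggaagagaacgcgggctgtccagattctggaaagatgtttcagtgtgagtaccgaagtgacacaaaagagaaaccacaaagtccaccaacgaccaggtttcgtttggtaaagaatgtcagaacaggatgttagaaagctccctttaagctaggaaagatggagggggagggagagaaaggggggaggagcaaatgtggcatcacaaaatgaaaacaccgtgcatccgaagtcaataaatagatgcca
Lgals3, chr14:47373610-47373859, plus strand: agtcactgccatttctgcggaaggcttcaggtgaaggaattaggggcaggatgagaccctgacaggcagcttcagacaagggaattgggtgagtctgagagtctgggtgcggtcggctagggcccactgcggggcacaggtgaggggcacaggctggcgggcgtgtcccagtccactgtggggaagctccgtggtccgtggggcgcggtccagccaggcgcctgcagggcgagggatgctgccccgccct
Capitals mark matches, on either strand, to GGAAGT (the core bound by the myeloid factor PU.1 and other ETS factors), TGACTCA (AP-1), CACGTG and CATGTG (E-boxes). Of the 4 stretches shown only that of Itgax held any: GGAAGT on the gene's strand starting 121 bases before the start site, TGACTCA on the opposite strand starting at 56 and GGAAGT on the opposite strand starting at 41. Clec7a has 2 RefSeq promoters, of which only the first was shown and searched. The Lgals3 stretch lies inside the gene span given below, so an annotated start further upstream is not covered. Of 32851 stretches of the same length in the table, 19.7% held GGAAGT, 4.46% TGACTCA, 6.02% CACGTG and 12.3% CATGTG. A match describes these letters alone.

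Itgax (chr7:128129547-128150657 in GENCODE M21) ranged from 4.17 to 27.2 normalised reads in intact libraries (median 13.7) and from 56 to 152 in AAV-GFP libraries (median 105), a log2 fold change of 2.80 ± 0.39 (SE, n = 6 a group; limma adjusted p = 0.00131). Clec7a (chr6:129461591-129472779) went from 21.8 to 32.4 (median 28.2) in intact and from 91.3 to 274 (median 178) in AAV-GFP, a log2 fold change of 2.59 ± 0.30 (limma adjusted p = 0.00028). For both genes every AAV-GFP library lay above every intact library, and AAV-GFP replicate 6 was the lowest of its group. Gpnmb (chr6:49036546-49070929) measured 91.3 to 152 normalised reads (median 104) in intact and 176 to 839 (median 478) in AAV-GFP, and rose by 1.97 ± 0.27 on the log2 scale (limma adjusted p = 0.00117). Lgals3 (chr14:47367751-47386160) measured 22 to 43.4 (median 33.4) and 67.2 to 185 (median 105), a rise of 1.68 ± 0.26 (limma adjusted p = 0.00297). Again no library of one group entered the range of the other. Cst7, the cathepsin inhibitor cystatin F, was near its floor in intact tissue, at 0 to 13.7 normalised reads (median 2.04), and stood at 33.4 to 101 (median 66.6) in AAV-GFP, with a fitted log2 fold change of 4.52 ± 0.55 (limma adjusted p = 0.000359) that depends on the pseudocount.

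**Figure D2:**
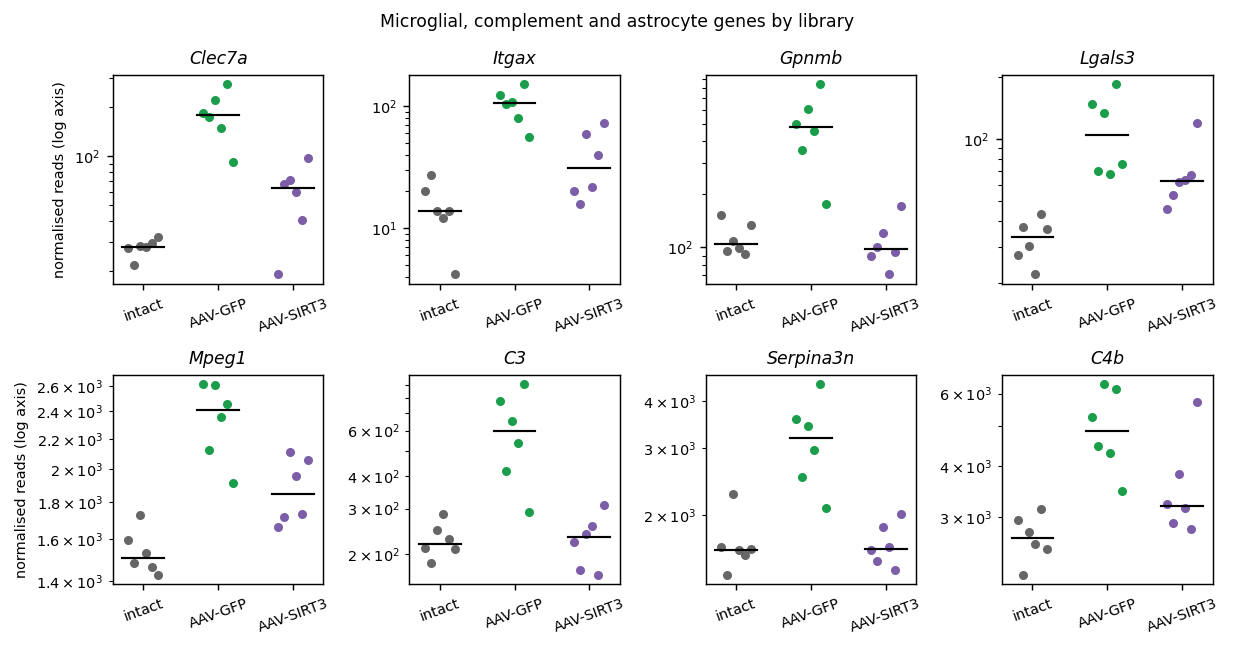
Normalised reads (log axis) of 8 genes, 1 point per library and a bar at the group median, in intact, AAV-GFP and AAV-SIRT3 mice. All 6 AAV-GFP libraries lie above all intact libraries for Clec7a, Itgax, Gpnmb, Lgals3, Mpeg1, C3 and C4b, and the ranges overlap for Serpina3n.

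Lipid-handling, receptor and lysosomal genes of the same state rose as well, most of them by less. Apoe, the main lipid carrier of the brain, ranged from 69411 to 83889 normalised reads in intact (median 75405) and from 86804 to 103112 in AAV-GFP (median 97434), with no overlap and a log2 fold change of 0.34 ± 0.056 (limma adjusted p = 0.00436). Trem2 rose by 0.56 (limma adjusted p = 0.0165) and Tyrobp by 0.67 (limma adjusted p = 0.0088) on the log2 scale, and in both the lowest AAV-GFP library lay inside the intact range. Lpl, a lipase that releases fatty acids from lipoproteins, rose by 0.52, and Ch25h, which makes 25-hydroxycholesterol, by 1.68. Among endolysosomal members, Lyz2 (lysozyme) rose by 0.92, Cd68 by 0.63, Ctsz by 0.41, Ctsd by 0.27 and the tetraspanins Cd9 and Cd63 by 0.29 and 0.25. Cd52, a small surface glycoprotein of leukocytes, rose by 0.72. Of the 8 members that did not pass, Ctsb had a log2 fold change of 0.10 (limma adjusted p = 0.136) and Spp1, or osteopontin, of 0.30 (limma adjusted p = 0.535).

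In the wider lysosome list few genes passed the test. Of its 25 tested genes 1 rose, the cathepsin gene Ctss, with a log2 fold change of 0.51 ± 0.081 (limma adjusted p = 0.00317), and 0 fell, while 9 had an unadjusted p under 0.05 in the rising direction and 1 in the falling one. The list median was 0.05. Without AAV-GFP replicate 1 or 4 the count was 2, and without AAV-GFP replicate 6 it was 3. Psap, the precursor of the saposins, ranged from 77071 to 80308 normalised reads in intact and from 76335 to 86634 in AAV-GFP.

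Genes of phagocyte receptors and signalling also rose in part. Of 24 tested genes of the phagocyte list, 9 rose and 0 fell, with a median log2 fold change of 0.43. Mpeg1 (chr19:12460779-12465283), the pore-forming perforin-2 of phagocytes, had the third smallest adjusted p of all genes, at 1428 to 1728 normalised reads in intact (median 1506) and 1910.2 to 2616 in AAV-GFP (median 2408), without overlap, a log2 fold change of 0.60 ± 0.076 (limma adjusted p = 0.000514). Among Fc receptors, the inhibitory Fcgr2b rose by 0.85 ± 0.17, the activating Fcgr3 by 0.53 ± 0.11 and their signalling chain Fcer1g by 0.52 ± 0.11. Fcgr2b ran from 199 to 449 in AAV-GFP, where replicate 6 alone fell within the intact range of 152 to 256. Itgb2 (the beta2 integrin chain), Cd14 (a co-receptor for lipopolysaccharide), Laptm5 (a lysosomal membrane protein of blood-lineage cells), Cd300c2 and the inhibitory receptor Lilrb4a rose by 0.49, 0.51, 0.25, 0.53 and 1.35. Cybb, the catalytic subunit of the phagocyte NADPH oxidase, which is on no list, rose by 1.23 ± 0.30 (limma adjusted p = 0.038). Lilrb4a, Lyz2 and the Fc receptor genes have close relatives in the genome, so their reads could be shared with those.

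Homeostatic microglial genes changed little. Of 15 tested genes 2 rose, 0 fell, and the median log2 fold change was 0.12. The risers were Aif1, which encodes the cytoskeletal protein Iba1 used to stain microglia, and Fcrls, an Fc receptor-like protein. Aif1 ranged from 187 to 218 normalised reads in intact (median 196) and from 237 to 306 in AAV-GFP (median 278), a log2 fold change of 0.47 ± 0.11 (limma adjusted p = 0.0283). The groups did not overlap for Aif1, and did for Fcrls. P2ry12, the ADP receptor of surveying microglia, had a log2 fold change of -0.04 (limma adjusted p = 0.823), and Csf1r, the survival receptor of microglia, of 0.13 (limma adjusted p = 0.123). The count was 1 without intact replicate 4 or 5 or AAV-GFP replicate 2, 3 or 5, and 4 without AAV-GFP replicate 6. In bulk tissue, more cells of a type and more RNA per cell cannot be told apart.

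Complement genes rose in part. Of 15 tested genes 6 rose and 0 fell, with a median log2 fold change of 0.24. That median was 0.10 without AAV-GFP replicate 2, 0.14 without intact replicate 2, 0.38 without intact replicate 3, and 0.37 and 0.41 when AAV-GFP replicate 4 or 6 was left out. The 3 chains of C1q, which starts the classical pathway, moved together: C1qa rose by 0.61 ± 0.10, C1qb by 0.53 ± 0.087 and C1qc by 0.48 ± 0.076 on the log2 scale (limma adjusted p = 0.00436, 0.00436 and 0.00297), each without overlap between groups. C4b (chr17:34728380-34743882), the next component, ranged from 2172 to 3133 normalised reads in intact (median 2668) and from 3471 to 6323 in AAV-GFP (median 4859), a rise of 0.88 ± 0.15 (limma adjusted p = 0.00713), with the limit that the near-identical C4a can share its reads. C3 (chr17:57203970-57228136), the central component, measured 185 to 287 (median 219) in intact and 292 to 906 (median 597) in AAV-GFP, a rise of 1.31 ± 0.21 (limma adjusted p = 0.0034). No AAV-GFP library of either gene reached down to the intact range. C3ar1, the receptor for the C3a fragment, rose by 0.58 (limma adjusted p = 0.037).

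Of 19 tested chemokines, cytokines and receptors 2 rose and 0 fell. Ccl3, a chemokine, rose by 1.46 ± 0.31 (limma adjusted p = 0.0206), and its groups overlapped. Ccl3 stayed low, at 14.7 to 47.7 normalised reads in AAV-GFP and 6.4 to 25.4 in intact. The count was 0 without intact replicate 4 or AAV-GFP replicate 5, and 1 without intact replicate 1, 2, 3 or 5 or AAV-GFP replicate 3 or 4.

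Taken over the 5 lists of microglia, phagocytes, complement and chemokines, 36 of 98 tested genes rose (36.7%, against 0.823% of all tested genes) and 0 fell, and 85 of the 98 fold changes were positive. These lists were chosen with earlier results of these data known, so setting the shares side by side is no independent test of enrichment. Of the 36, 20 kept an adjusted p under 0.05 in every fit that left out 1 library. Counts for single lists depended on the library left out: the disease-associated list went from 17 to 10 without AAV-GFP replicate 5 and to 11 without AAV-GFP replicate 3, and the phagocyte list from 9 to 6, 6, 6, 5 and 4 without intact replicate 2, intact replicate 4, AAV-GFP replicate 2, 3 and 5. In several of these genes AAV-GFP replicate 6 was the lowest of its group: its score over the disease-associated list (mean log2 value relative to the intact mean) was 0.45, against 0.75 to 1.13 in the other 5 AAV-GFP libraries and -0.13 to 0.17 in the intact ones.

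Reactive astrocyte genes rose in part. Of 28 tested genes 5 rose and 0 fell, with a median log2 fold change of 0.27, and 14 had an unadjusted p under 0.05, all in the rising direction. Serpina3n (chr12:104406729-104414329), a secreted protease inhibitor with close relatives in the genome, ranged from 1392 to 2278 normalised reads in intact (median 1621) and from 2092 to 4431 in AAV-GFP (median 3203), a rise of 0.89 ± 0.14 (limma adjusted p = 0.00297). The overlap came from intact replicate 3, the highest of its group, and AAV-GFP replicate 6, the lowest of its own. Gfap, the intermediate filament of astrocytes, ranged from 14204 to 21766 (median 17053) in intact and from 19102 to 33696 (median 23668) in AAV-GFP, a rise of 0.50 ± 0.12 (limma adjusted p = 0.0388) that held in 4 of the 12 fits without 1 library. The protease-trapping proteins A2m and Cd109 rose by 0.49 ± 0.11 and 0.78 ± 0.15, and the crosslinking enzyme Tgm1, low in both groups, by 2.08 ± 0.48. Tgm1 measured 6.4 to 10.4 normalised reads in intact and 11.8 to 70.9 in AAV-GFP. It had enough reads to be tested only through the AAV-GFP libraries, so its call adds no support to the list count. The count went to 2 without intact replicate 3 or AAV-GFP replicate 3, to 3 without intact replicate 4 or 5 or AAV-GFP replicate 2 or 5, and to 8 without AAV-GFP replicate 6.

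Lcn2, a secreted iron-siderophore binding protein of acute responses and a member of that list, varied widely among AAV-GFP libraries. It measured 107, 960, 198, 49.4, 1016 and 4.91 normalised reads in AAV-GFP replicates 1 to 6, and 2.74 to 23 in intact libraries, with a log2 fold change of 3.91 ± 1.02 that missed the threshold (limma adjusted p = 0.0502). All but AAV-GFP replicate 6 lay above the intact range. Astrocyte genes of the resting state did not pass the test in either direction: 0 of 16 by limma, edgeR or DESeq2. By limma 3 of them had an unadjusted p under 0.05, near the share over all tested genes (3707 of 19442). Aqp4, the water channel of astrocyte endfeet, had a log2 fold change of 0.22 (limma adjusted p = 0.166), and Slc1a2, the main glutamate transporter, of 0.04 (limma adjusted p = 0.767).

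Genes of antiviral and adaptive immunity did not pass the test. Of 28 tested interferon-response genes 0 were called by limma, edgeR or DESeq2, 0 rising and 1 falling at an unadjusted p under 0.05, and the median log2 fold change was 0.05. Ifit3, an interferon-induced antiviral protein, measured 411 to 567 normalised reads in intact and 436 to 724 in AAV-GFP. Of 15 MHC class I genes and 7 MHC class II genes 0 were called by any of the 3 tools, with 1 and 0 at an unadjusted p under 0.05 by limma. Of 21 T cell markers 9 were abundant enough to test and 0 of those were called, with 0 at an unadjusted p under 0.05. Cd3e, a chain of the T cell receptor complex, stayed between 0.977 and 12.8 normalised reads in intact and between 6.35 and 20.4 in AAV-GFP. Summed over all 21 T cell markers, intact libraries held 448 to 590 normalised reads and AAV-GFP libraries 520 to 678. Border macrophage and monocyte markers gave 0 calls among 12 tested with any of the 3 tools and 0 at an unadjusted p under 0.05, with summed levels of 1309 to 2097 in intact and 1174 to 2185 in AAV-GFP.

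Among 9 tested genes of vector entry and nucleic acid sensing limma and edgeR called 0 and DESeq2 called 1, with 3 at an unadjusted p under 0.05. AU040320, the mouse gene of the AAV receptor, ranged from 3730.3 to 4296 normalised reads in intact and from 3831 to 4149 in AAV-GFP, and Gpr108, a further entry factor, from 1750.3 to 1862 and from 1749 to 2018. Those ranges overlapped for both genes. Of 15 tested p53 targets 1 rose, the cyclin Ccng1, by 0.21 ± 0.049 (limma adjusted p = 0.0335), a call lost without intact replicate 1, 3, 4 or 5 or AAV-GFP replicate 3 or 5. Of 16 genes of the unfolded protein response 2 rose, the transcription factor Xbp1 by 0.24 ± 0.054 (limma adjusted p = 0.0283) and the endoplasmic reticulum chaperone Creld2 by 0.28 ± 0.065 (limma adjusted p = 0.0336), and 11 of the 16 had an unadjusted p under 0.05, all upward. The number that rose was 0 without intact replicate 4 or AAV-GFP replicate 2, 3 or 5, 1 without intact replicate 1 or 3, and 3 without intact replicate 6 or AAV-GFP replicate 4. Sirt3 itself did not differ by the test, at 1733 to 1919.6 in intact and 1684 to 1936 in AAV-GFP (limma adjusted p = 0.656).

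Genes of dopaminergic neurons fell in part. Of 26 dopaminergic neuron genes 0 rose and 5 fell, with a median log2 fold change of -0.28 and 2 positive values. Slc6a3 (chr13:73536747-73578672), the dopamine transporter, ranged from 9283 to 12867 normalised reads in intact (median 11103) and from 6087 to 9172 in AAV-GFP (median 8404), a log2 fold change of -0.44 ± 0.099 (limma adjusted p = 0.0263), with no overlap. Th, the rate-limiting enzyme of dopamine synthesis, did not pass, at 4623 to 6637 (median 5679) in intact and 3673 to 5429 (median 4686) in AAV-GFP (log2 fold change -0.28 ± 0.084, limma adjusted p = 0.0755), though DESeq2 called it (adjusted p = 0.0231), as did limma with the length trend removed (-0.32, adjusted p = 0.0441). The other falls were Ret, the receptor subunit for glial cell line-derived neurotrophic factor (-0.30), Chrna6, a nicotinic receptor subunit (-0.35), Dlk1, a Notch-family ligand (-0.28), and Satb1, a chromatin organiser (-0.20). Aldh1a1, an aldehyde dehydrogenase of ventral nigral neurons, had a log2 fold change of 0.00 (limma adjusted p = 1).

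These falls moved with the level of thalamic markers in the intact libraries. Intact replicates 1, 3 and 5, the libraries with the lowest thalamus scores, had dopaminergic scores of 0.20, 0.18 and 0.13, the other intact libraries -0.25 to -0.11, and AAV-GFP libraries -0.41 to -0.13. Without those 3 libraries, a fit chosen after seeing the data, limma called 0 of the 26 genes and the median was -0.07, against -0.28 with them. By limma 6 of the 26 fell at an unadjusted p under 0.05 in that fit, beside 1178 of all 19442 tested genes. The 3 libraries also had the highest dopaminergic scores of the intact group, so a smaller fall of the list without them was fixed in advance. With the thalamus score as a covariate limma also called 0, and the median was -0.08. In that fit 6 fell at an unadjusted p under 0.05 by limma, beside 1248 of all 19442 tested genes. Leaving out intact replicate 3 or 5 or AAV-GFP replicate 5 alone also gave 0, with 13 falling at an unadjusted p under 0.05 in each of those fits. Over all 19442 tested genes, 1560, 1711 and 1765 fell at that level in those fits, in the same order. Without intact replicate 1 or AAV-GFP replicate 2 or 6 the count of called dopaminergic genes was 3. It was 2 without intact replicate 4 or AAV-GFP replicate 3, and 10 without intact replicate 2. What part the thalamic markers have in the falls was not tested further.

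**Figure D3:**
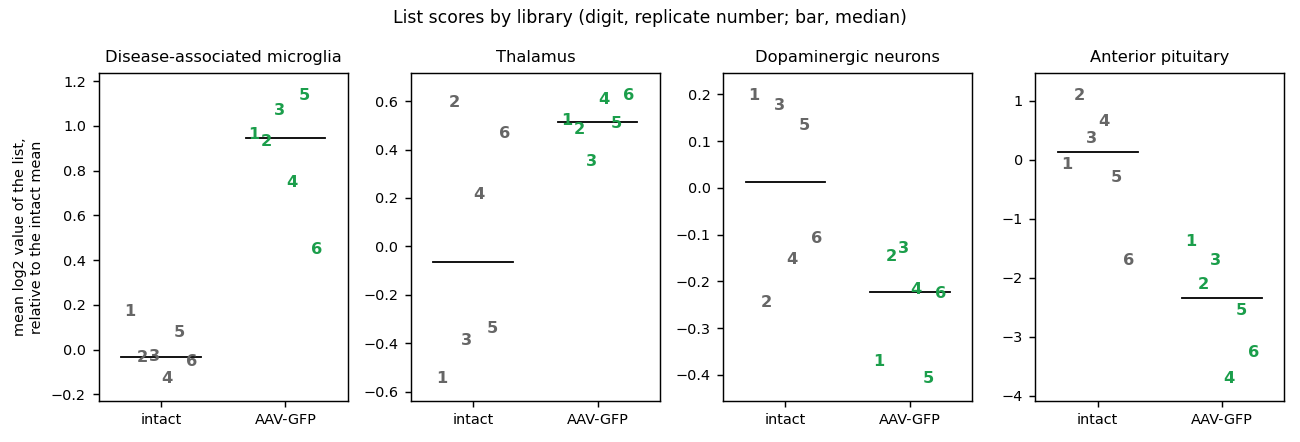
Mean log2 value over the genes of 4 lists in each intact and AAV-GFP library, relative to the intact mean, with the replicate number as the symbol and a bar at the median. The disease-associated microglia scores separate the groups, while for the thalamus and dopaminergic neurons intact replicates 1, 3 and 5 stand apart from intact replicates 2, 4 and 6, which lie near or within the AAV-GFP range.

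Thalamic markers were higher in AAV-GFP by the same measure: 3 of 20 rose, 0 fell, all 20 fold changes were positive and the median was 0.50, which became 0.11 without intact replicates 1, 3 and 5. Those 3 libraries were chosen for their low score over these same 20 genes. A smaller change of the list and of its members without them was therefore fixed in advance. Shox2, a homeobox factor of thalamic and midbrain neurons, ranged from 1270 to 3137 normalised reads in intact and from 2816 to 3981 in AAV-GFP, a log2 fold change of 0.80 ± 0.17 (limma adjusted p = 0.0211), and of 0.35 without those 3 libraries. Lef1, a Wnt-pathway transcription factor, and Synpo2, an actin-associated protein, rose by 0.72 and 0.72. The neuropeptide Cck rose by 0.70 ± 0.15 (limma adjusted p = 0.0214), and had a log2 fold change of 0.31 without the 3 libraries (limma adjusted p = 0.275). The thalamus count was 0 without intact replicate 3 or 5, 1 without intact replicate 1 or any of AAV-GFP replicates 2 to 6, 13 without intact replicate 2 and 12 without intact replicate 6.

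The largest falls were genes of the anterior pituitary list. Prl (prolactin, chr13:27057570-27065205) measured 356, 481, 228, 231, 155 and 13.6 normalised reads in intact replicates 1 to 6, and 29.6, 7.29, 74.8, 0, 0 and 0 in AAV-GFP replicates 1 to 6, a fitted log2 fold change of -5.00 ± 1.10 (limma adjusted p = 0.0234). Gh (growth hormone) measured 56.4 to 2244 in intact (median 1359) and 5.96 to 314 in AAV-GFP (median 39.9), a fold change of -4.24 ± 0.92 on the log2 scale (limma adjusted p = 0.0214). Intact replicate 6 was low for both hormones, inside the AAV-GFP range. Pomc, the precursor of corticotropin, and Cga, the common chain of glycoprotein hormones, also fell (-2.65 and -2.95), so that 4 of 6 tested pituitary markers fell. Cga measured 2.09 to 102 normalised reads in intact, 0 to 12.7 in AAV-GFP and 0 to 2.86 in AAV-SIRT3. It had enough reads to be tested only through the intact libraries, so its call adds no support to the list count. None of the 4 was called in the fit without intact replicate 3, 4 or AAV-GFP replicate 5, 1 was called without AAV-GFP replicate 4, and 2 were called without intact replicate 2 or 5 or AAV-GFP replicate 2, 3 or 6. Prl and Gh are products of the pituitary, which lies below the brain. Pomc did not follow them across the intact libraries. Intact replicate 1, at 1581 for Gh, had the lowest intact Pomc value (197), and intact replicate 6, low for Prl and Gh, held 431. The part of pituitary RNA in other falls was not tested, nor was the source of Pomc.

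Pax5, a transcription factor of midbrain GABAergic neurons, ranged from 167 to 936 normalised reads in intact (median 366) and from 105 to 194 in AAV-GFP (median 145), a log2 fold change of -1.28 ± 0.27 (limma adjusted p = 0.0206), and of -0.75 without intact replicates 1, 3 and 5. It was the 1 gene to fall of 16 GABAergic markers of the nigra, whose count was 0 without AAV-GFP replicate 5 and 2 without intact replicate 6. Of the 8 remaining named falls 3 were receptors: Glra1 (a glycine receptor subunit, -0.85), Htr3a (a serotonin-gated channel subunit, -0.79) and Oprm1 (the mu opioid receptor, -0.72). They stayed past the threshold in 3, 5 and 8 of the 12 fits without 1 library, and none did with the thalamus covariate (limma adjusted p = 0.341, 0.236 and 0.193). The others were Vgll3, a transcriptional cofactor (-0.99), Pde11a, a cyclic nucleotide phosphodiesterase (-0.77), Nkain3, a partner of the sodium pump (-0.74), and the RNAs Gm26811 and Gm49484 (-0.86 and -0.82). Gm26811 is annotated as antisense, and since the strand setting of the counting is not given, reads of its partner gene could be included.

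Of the 10 named genes with the smallest p-values 3 fell and 7 rose. Slc29a4, the plasma membrane monoamine transporter, measured 1409.8 to 1701 normalised reads in intact (median 1597) and 1134 to 1354 in AAV-GFP (median 1196), a log2 fold change of -0.37 ± 0.053 (limma adjusted p = 0.00147). Ntrk3, the receptor for neurotrophin-3, and Nav1, a microtubule-associated neuron navigator, changed by -0.37 ± 0.057 and -0.30 ± 0.046 (limma adjusted p = 0.00297 for both). For all 3 genes every AAV-GFP library lay below every intact library. Both Ntrk3 and Nav1 have long transcripts, and with the length trend of each library removed their log2 fold changes were -0.18 (limma adjusted p = 0.0645) and -0.16 (limma adjusted p = 0.0195). Ntrk3 also lost its call with the thalamus covariate (limma adjusted p = 0.0886) and without intact replicates 1, 3 and 5 (limma adjusted p = 0.131). Slc29a4 and Nav1 stayed past the threshold with the covariate (limma adjusted p = 0.0299 and 0.0237). Without those 3 libraries both lost their call (limma adjusted p = 0.0734 for each). Cpe, a carboxypeptidase that trims neuropeptides, rose without overlap by 0.30 ± 0.046 (limma adjusted p = 0.00297). Its call was lost with the thalamus covariate (limma adjusted p = 0.0969) and without the 3 intact libraries (limma adjusted p = 0.0806). The remaining named rises were the RNA C030013G03Rik (1.36, and 0.86 without intact replicates 1, 3 and 5, limma adjusted p = 0.283), Xlr, a gene of a multicopy X-linked family whose reads could be shared (0.75), and Tnfaip8l2, a regulator of immune signalling (0.75). Falls were longer transcripts than rises: the median length was 6250 bases for the genes that fell, 2325 for those that rose and 3024 over all tested genes with a length, and with the length trend of each library removed 87 of the 198 falls and 104 of the 160 rises stayed past the threshold. That fit called 134 rises and 89 falls in all.

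Genes of cholesterol synthesis and uptake fell in part, by small amounts. Of 18 genes 0 rose and 4 fell, all 18 fold changes were negative and the median was -0.15. Called members included Lss, lanosterol synthase (-0.20 ± 0.047), and Sqle, squalene epoxidase (-0.18 ± 0.045). Without intact replicates 1, 3 and 5, by limma 5 of the 18 fell at an unadjusted p under 0.05, beside 1178 of all 19442 tested genes. Limma called 0 of the 18 in that fit, and the list median was -0.08. Leaving out single libraries, the count was 0 without intact replicate 3 or AAV-GFP replicate 3, 1 without intact replicate 1 or AAV-GFP replicate 2, 4 or 5, and 2 without intact replicate 4 or 5. Of 53 nuclear genes of oxidative phosphorylation 1 rose, the complex III subunit Uqcrb (0.18 ± 0.045, limma adjusted p = 0.0387). Of the 53 fold changes 52 were positive, with a median of 0.12, which was 0.077 without AAV-GFP replicate 2. With the length trend removed the median was 0.07 and Uqcrb was no longer called. It also lost its call without intact replicate 1, 3, 4 or 5 or AAV-GFP replicate 2, 4, 5 or 6, while 5 of the 53 genes were called without AAV-GFP replicate 1.

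Leaving out intact replicates 1, 3 and 5 ended most calls among rises and falls alike. Of the 15 largest rises 4 stayed past the threshold, namely Clec7a (2.62 against 2.59 with all libraries), Itgax (3.01 against 2.80), Gpnmb (2.00 against 1.97) and Serpina3n (1.00 against 0.89). The other 11 lost their call, among them Lgals3 (1.72 against 1.68, limma adjusted p = 0.0577), C3 (1.32 against 1.31, limma adjusted p = 0.0813), C4b (1.02 against 0.88, limma adjusted p = 0.0502) and Fcgr2b (0.95 against 0.85, limma adjusted p = 0.117). All 15 kept their direction, and the log2 fold change shrank by over 1.5 times for Shox2 and C030013G03Rik. Shox2 is a gene of the thalamus score by which those libraries were chosen. Of the 12 largest falls all kept their direction, limma called 0, and Pax5 shrank by over 1.5 times. With the thalamus score as covariate 9 of the 15 rises and 0 of the 12 falls stayed past the threshold. The median over the disease-associated list was 0.58 without the 3 libraries and 0.68 with the thalamus score as covariate, while its called members numbered 5 and 10. Of the 98 tested genes of the 5 microglial, phagocyte, complement and chemokine lists, those fits called 6 and 20 higher, against 36 with all libraries and no covariate; the complement list went from 6 to 0 without the 3 libraries, with 6 at an unadjusted p under 0.05. The fit without the 3 libraries called 10 genes in all, 10 rises and 0 falls, with 1075 rising and 1178 falling at an unadjusted p under 0.05. With the covariate 36 rises and 3 falls were called. All 160 rises and all 198 falls kept their direction in both fits, with median log2 fold changes of 0.31 and -0.25 without the 3 libraries and 0.30 and -0.25 with the covariate, against 0.39 and -0.29.

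**Figure D4:**
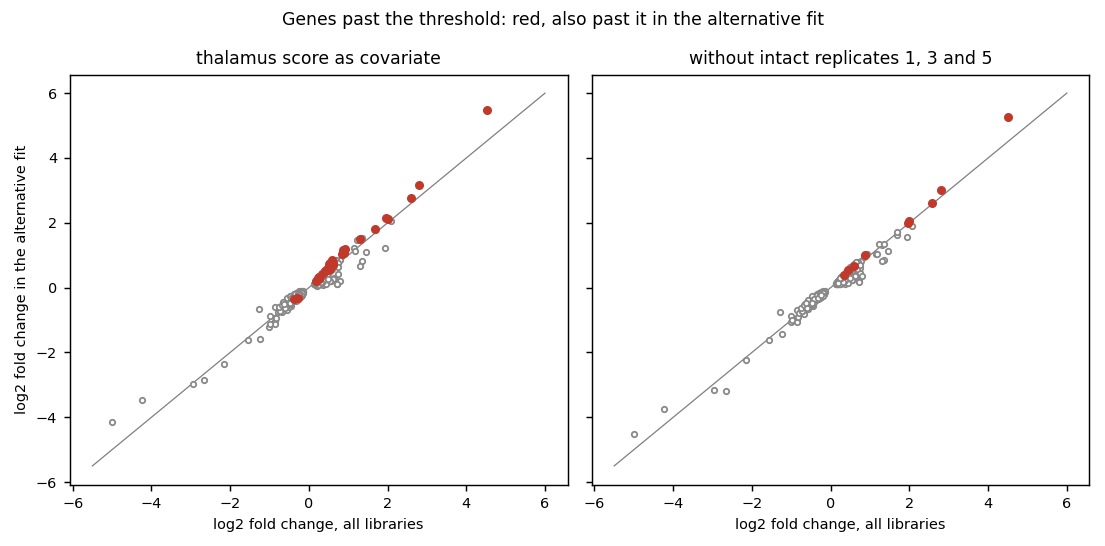
Log2 fold change of the 358 called genes in the fit of all libraries (x axis) and in 2 other fits (y axis), with genes still past the threshold in red and a line of equality. All points keep their sign; the genes in red are mostly rises, 32 of 160 with the thalamus covariate and 9 of 160 without intact replicates 1, 3 and 5.

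A set of 8 genes was called in every fit without 1 library, with edgeR and DESeq2, with the thalamus covariate, with the length trend removed and without the 3 intact libraries, and all 8 rose: Apoe, Clec7a, Gpnmb, Itgax, Mpeg1, Serpina3n, Ly9 and Chil1. The last pair was named after its values were seen. Ly9, an immune cell surface receptor, measured 8.79 to 25.1 normalised reads in intact (median 14.2) and 33.4 to 91.8 in AAV-GFP (median 66.4), a rise of 2.00 ± 0.31 (limma adjusted p = 0.00297). Chil1, a chitinase-like protein secreted by reactive astrocytes, measured 657 to 892 (median 776) and 854 to 1179.9 (median 1067), a rise of 0.45 ± 0.085 (limma adjusted p = 0.012). Ly9 did not overlap between groups, and Chil1 did.

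The AAV-SIRT3 group shares the intact libraries with this comparison, so its values are given side by side. Against intact, 4214 of 19442 genes (21.7%) were called in AAV-SIRT3, 2206 (11.3%) higher and 2008 (10.3%) lower. The median log2 fold change over the 160 genes that rose in AAV-GFP was 0.39 in AAV-GFP and 0.27 in AAV-SIRT3, and over the 198 that fell it was -0.29 and -0.30. These genes were chosen for their difference from the same intact libraries, so like values in AAV-SIRT3 are partly fixed by that choice. The falls were also long transcripts, and every AAV-SIRT3 library had a negative correlation with transcript length, from -0.32 to -0.014. Of the 98 tested genes of the 5 microglial, phagocyte, complement and chemokine lists, 36 were called higher in AAV-GFP and 30 in AAV-SIRT3, each against intact. Over all tested genes those shares were 0.823% and 11.3%. The disease-associated list had a median of 0.52 in AAV-GFP and 0.13 in AAV-SIRT3, and the reactive astrocyte list 0.27 and -0.03. Clec7a, Itgax and Cst7 rose by less in AAV-SIRT3 (0.92, 1.23 and 2.64) than in AAV-GFP (2.59, 2.80 and 4.52). In AAV-SIRT3 the C1q genes lay near their AAV-GFP level, with a log2 fold change against intact of 0.52 for C1qa, 0.48 for C1qb and 0.41 for C1qc. Gpnmb, C3 and Serpina3n instead lay near their intact level in AAV-SIRT3: Gpnmb measured 70.4 to 171 normalised reads there (log2 fold change -0.11 against intact), C3 167 to 311 (-0.01) and Serpina3n 1431 to 2012 (0.00). Between the AAV groups themselves 5 of the 358 genes differed by limma at an adjusted p under 0.05, namely Gpnmb (0.00198), C3 (0.00991), Serpina3n (0.00991), A2m (0.0116) and Clec7a (0.0168). All 5 were rises in AAV-GFP against intact. The 358 genes were chosen on the same AAV-GFP libraries, which favours such differences. The share over all tested genes is not given here, so no conclusion is drawn from the count. Interferon-response genes, of which 0 of 28 were called in AAV-GFP, had 15 called higher in AAV-SIRT3, with a median of 0.70 against 0.05 in AAV-GFP.

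**Figure D5:**
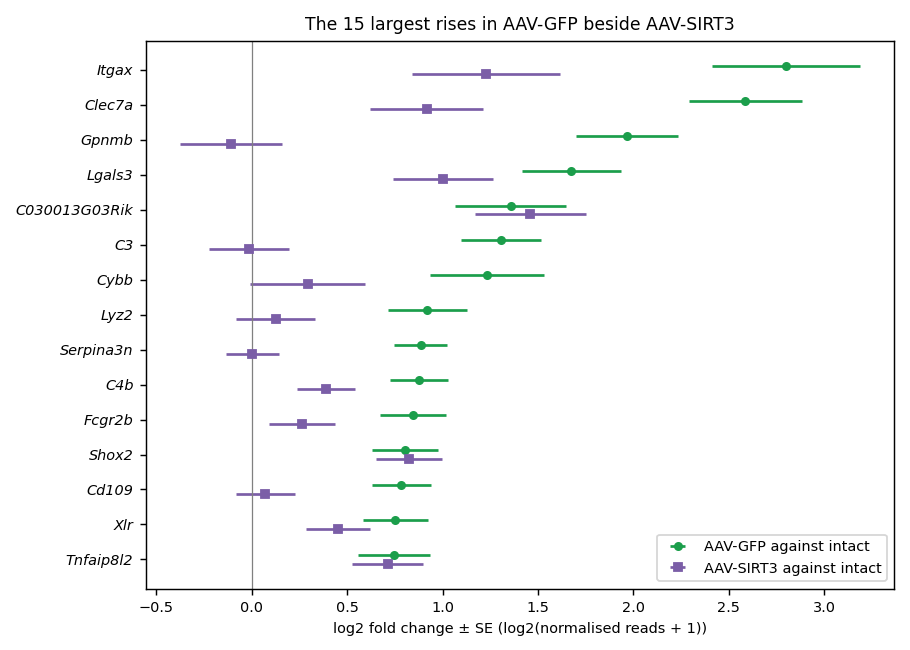
Log2 fold change ± SE against the same intact libraries for the 15 genes with the largest rises in AAV-GFP (circles) and for the same genes in AAV-SIRT3 (squares). Gpnmb, C3 and Serpina3n lie near 0 in AAV-SIRT3, while C030013G03Rik, Shox2 and Tnfaip8l2 lie at like values in both.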

How the data were processed

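The authors deposited 1 table of HTSeq gene counts normalised by DESeq2 size factors, a signal on a linear scale, for 18 substantia nigra libraries (HTSeq and DESeq2 per the name of the deposited table; poly-A selected, stranded and paired-end per the labels' protocols). Mouse build mm10, HISAT2 2.1.0 and DESeq2 1.34.0 are named, without roles, per the submitters' processing notes; the gene annotation and the strand setting of the counting are not given in the sources used here. Multiplying each deposited signal value by its library's size factor gave whole reads for 100% of values (within 0.001), and those reads entered edgeR and DESeq2 as alternatives, which called 352 and 1008 genes. A row naming no gene held at most 0.000289% of reads and was left out.

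Genes with at least 10 normalised reads in at least 6 libraries (19442 of 55269) were tested with limma 3.58.1 (R 4.3.3) on log2(value + 1), with a mean-variance trend, all 3 groups in 1 model 15 residual degrees of freedom and p-values adjusted by Benjamini-Hochberg. Log2 fold changes refer to value + 1 and, for genes with few reads, depend on that pseudocount. The libraries are separate mice by the design text, and p-values measure the spread between these libraries. Pairs of replicates differed by 7.75 to 33.5 chi-square units per degree of freedom, so none was a copy of another. Alternatives used edgeR 4.0.16 and DESeq2 1.42.0, other pseudocounts, filters and scalings, a replicate block, a thalamus covariate and the omission of libraries; the omission of 3 intact libraries and the removal of length trends were added after seeing the data. The code was tested on simulated data.

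Members and gene lists were chosen with earlier results of these data known. Among called genes averaging 50 or more normalised reads in both groups together, the text names the 15 largest rises, the 12 largest falls and the 10 smallest p-values, with Sirt3, Th, Slc6a3, Gfap and Aif1, the called members of lists and up to 4 abundant members of lists with few calls. Ctsb, Spp1, P2ry12, Lcn2, Aqp4, Ifit3, Cd3e, Aldh1a1, Ly9 and Chil1 were added after their values were seen. Positions are from GENCODE M21 (GRCm38) and promoters from RefSeq (GRCm38.p6), where 13 of the 15 largest rises matched. Some list members are not reported here.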

Additional observations from a re-analysis of the deposited data

Results flagged for a closer look

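In 9 of 76 groups of 6 libraries, the highest or lowest library lay further from the rest than Dixon's 95% limit. Chance alone would give about 1 in 20, or 3.8. The groups cover the genes named as largest rises, largest falls or smallest p-values, with Sirt3, Th, Slc6a3, Gfap and Aif1. Other genes in the text, such as Ttr and Cst7, were not among them. In the intact group, Serpina3n was high in replicate 3 (2278 normalised reads, next 1645), Pomc in replicate 4 (3680.4, next 1494), Pax5 in replicate 1 (936, next 390.2) and Glra1 in replicate 1 (2081, next 835). In the AAV-GFP group, Gh was high in replicate 3 (314, next 70.2). Fcgr2b was low in AAV-GFP replicate 6 (199, next 356), and Slc6a3 in AAV-GFP replicate 5 (6087, next 8113). Nkain3 and Nav1 were both low in AAV-GFP replicate 2, at 105 (next 167) and 6687 (next 7886), the library that also stood apart by transcript length. What set these libraries apart was not tested.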

How the results depend on the processing

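Of 2170 alternative values for 91 named genes, 1616 kept their side of the threshold, 551 lost it, 3 gained it and 0 changed direction. The 358 calls (160 higher, 198 lower) became 164 (83 and 81) with all genes above 0 tested, 1008 (467 and 541) with DESeq2, 199 (102 and 97) with only the 2 groups in the fit, 39 (36 and 3) with the thalamus score as covariate, 10 (10 and 0) without the 3 intact libraries of lowest thalamus score, and 223 with the length trend removed (134 higher and 89 lower); the cause was not tested, though the fits with 2 groups and without 3 libraries also have fewer samples. Leaving out 1 library gave 129 to 686 calls, 71 to 321 higher and 55 to 365 lower. The other alternatives (pseudocounts 0.5 and 10, a mean of at least 50, TMM scaling and edgeR) gave 336 to 451 calls. The 4214 calls of AAV-SIRT3 against intact became 2012 with the covariate and 1686 without the 3 intact libraries, and 3279 to 4300 without 1 library. With the replicate number as a block 372 genes were called (169 higher, 203 lower); equal numbers did not pair the samples, since deviations of same-numbered libraries correlated at -0.095 to 0.055 and no AAV-GFP library matched its own number best. Depth limits mainly genes near the floor: Cst7, Prl, Cga and Ch25h have fitted fold changes that depend on the pseudocount, and a difference there rests on few reads.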

Other observations

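Other cell classes of the nigra did not pass the test. Of 16 genes of mature oligodendrocytes 0 were called by limma, edgeR or DESeq2, with 2 at an unadjusted p under 0.05 by limma. Mbp, the myelin basic protein, measured 347320 to 467731 normalised reads in intact and 371674 to 449242 in AAV-GFP. Of 17 endothelial genes limma called 0, with 3 at an unadjusted p under 0.05, and edgeR and DESeq2 called 1. Slc2a1, the glucose transporter of the blood-brain barrier, measured 4385 to 5726 in intact and 4887 to 5838 in AAV-GFP. Of 17 immediate early genes 0 were called by any of the 3 tools, with 3 at an unadjusted p under 0.05. Over all tested genes, 3707 of 19442 were at an unadjusted p under 0.05 by limma.

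Among 13 neuropeptides and related secreted proteins, Cbln2, a synapse organiser of the cerebellin family, rose beside Cck. It measured 2104 to 2637.1 normalised reads in intact and 2637.0 to 2894 in AAV-GFP, a log2 fold change of 0.21 ± 0.053 (limma adjusted p = 0.0425), and it stayed past the threshold in 3 of the 12 fits without 1 library.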
